A study of Mus musculus with 21 samples.

Results

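The untreated state of Ba/F3 cells was measured in 2 groups of 3 Illumina BeadChip arrays each, labelled untreated batch A and untreated batch B. The 6 arrays were chosen by their titles from the 21 arrays of the series, and every probe was considered. Both groups hold the same mouse line with no agent, voltage or heat applied, and neither label names a genotype, a passage or a culture date. In the rest of the series, batch A holds cells actuated for 15 min on a digital microfluidic device at 400 Vpp and 1 or 18 kHz, and batch B holds cells heated for 15 min at 42, 47 or 52 °C. The question here is which transcripts the resting line carried in both batches and which differed between them. The untreated arrays of batch A lay on 1 beadchip and those of batch B on 2 others, so that batch, beadchip, RNA amplification and culture cannot be told apart. No label says that replicates were separate cultures, so p-values measure only the spread between these arrays, and 3 arrays a group limit the precision.

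Ba/F3 is a factor-dependent mouse blood cell line that is usually described as pro-B and that dies without interleukin 3 (IL-3). IL-3 binds the receptor of Il3ra and the common beta chains Csf2rb and Csf2rb2, which activates the kinase Jak2 and the transcription factor Stat5a. Stat5 targets such as Cish, Pim1 and Myc feed back on the signal or drive survival and growth. Mast cells and basophils, which also respond to IL-3, store proteases and histamine in granules and depend on the factor Gata2.

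Each array carried 45281 probes, and a probe was called detected at a deposited detection p below 0.01. Between 13123 and 14355 probes were detected on the batch A arrays and between 12841 and 13098 on the batch B arrays. Levels below are log2 intensities after background correction and quantile normalization over the 6 arrays, and a difference is batch B minus batch A. Over the 9362 genes tested, correlations between arrays ran from 0.992 to 0.994 within batch A, from 0.983 to 0.993 within batch B and from 0.952 to 0.961 between the batches. Replicate 1 of batch B, the only untreated array on its beadchip, gave the lower values within its group, 0.983 and 0.985.

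Most of what the resting line expressed was detected in both batches. Of 28859 genes on the array, 8176 were detected on all 6 arrays by at least 1 probe. These made up 92.9% of the 8801 genes detected on every batch A array and 96.56% of the 8467 detected on every batch B array. Another 207 genes were detected on all 3 arrays of batch A and on none of batch B, 63 genes showed the opposite, and 18015 were detected on no array. The basic machinery was present throughout: 57 of 63 cytosolic ribosomal protein genes on the array, 68 of 73 genes of oxidative phosphorylation and 34 of 38 proteasome genes were detected on all 6 arrays.

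The lineage genes detected were those of myeloid and mast cells rather than of B cells. Of 24 B-lineage genes on the array, 21 were detected on no array, among them Pax5 and Ebf1, the factors that commit cells to the B lineage, the surrogate light chain genes Vpreb1 and Igll1, and the recombinase gene Rag1. The array data go against the pro-B description at the level of these markers, although a probe that fails would read the same. Only Cd79b, a signalling chain of the B-cell receptor, and Ptprc, the common leukocyte antigen CD45, were detected on all 6 arrays. In contrast, 11 of 23 mast cell and basophil genes, 8 of 16 neutrophil granule genes and 5 of 11 eosinophil genes were detected on all 6. So were 16 of 30 haematopoietic transcription factors. Over all genes on the array, 8176 of 28859 were detected on all 6 and 18015 on none. Detected on no array were 10 mast cell and basophil, 5 neutrophil granule, 6 eosinophil and 12 transcription factor genes of these lists. Kit, the stem cell factor receptor of mast cells, was detected on no array, nor was Il3 itself. T and NK cell genes such as Cd3e, Cd4 and Cd8a were detected on no array (12 of 18 on the list). That share is near the share of all genes. The macrophage genes Csf1r and C1qa (14 of 18 undetected) and the tissue genes Col1a1, Epcam and Cdh5 (15 of 19) were also undetected. Adgre1 and Lyz1 of the macrophage list and Acta2 and Pecam1 of the tissue list were detected on all 6 arrays. So was Prf1 of the T and NK list.

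**Figure D1:**
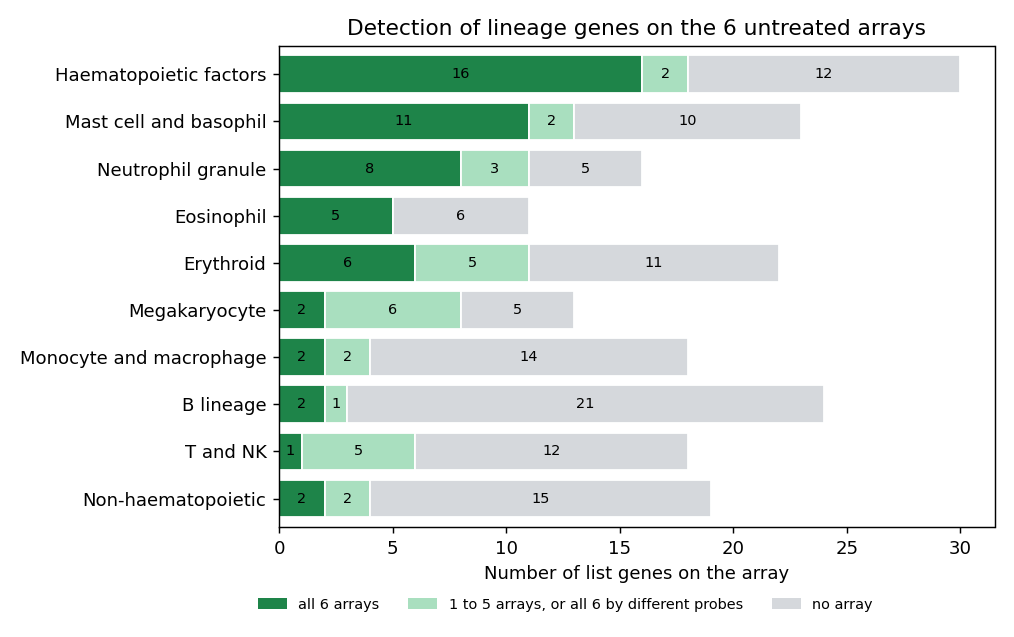
Number of genes of each lineage list on the array (horizontal axis), split into those detected on all 6 untreated arrays (dark green), on fewer or only through different probes (light green) and on no array (grey). The bar of the B lineage is almost wholly grey, with 21 of 24 genes undetected. Of 23 mast cell and basophil genes, 11 were detected on every array and 10 on none.

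Gata2, Cma1 and Cpa3 marked the line in both batches, and Hba-a1 was high in batch A alone. Gata2, a transcription factor of mast cells and progenitors, read 13.85, 13.82 and 13.82 in batch A and 13.75, 13.41 and 13.66 in batch B. All 6 values are high, the groups do not overlap, and the difference of -0.23 ± 0.12 (SE) did not pass the test (limma, adjusted p = 0.157). Cma1, the mast cell chymase, read 12.58, 12.89 and 12.82 in batch A against 12.51, 12.76 and 12.67 in batch B, which overlap (difference -0.12, adjusted p = 0.486). Cpa3, the carboxypeptidase of mast cell granules, read 13.16, 13.17 and 12.90 against 12.36, 12.58 and 12.56. Every batch B array was lower, by 1.49-fold on average (adjusted p = 0.0066), and both other probes of Cpa3 fell as well. With scaling by the median alone the adjusted p of Cpa3 was 0.0857, and with all 21 arrays processed together it was 0.168.

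Hba-a1, which encodes the alpha chain of adult haemoglobin, gave 9.33, 9.35 and 9.08 in batch A and 5.0, 5.24 and 5.65 in batch B. It was detected on all 3 arrays of batch A and on 1 of 3 in batch B, and the groups lie far apart. Hba-a1 was at least 12.8-fold higher in batch A when the undetected arrays are set at the lowest detected level (fitted difference -3.96 ± 0.17, adjusted p = 1.65e-05). A near-identical second copy of the alpha globin gene exists in the mouse, and the probe cannot be assigned to either with certainty. Of 22 erythroid genes on the array, 6 were detected on all 6 arrays and 11 on none, Alas2 and Slc4a1 among the latter. Over all genes on the array, 8176 of 28859 were detected on all 6 and 18015 on none. Of the 9 erythroid genes tested, 1 was higher in batch B (11.1%) and 5 lower (55.6%), against 24.1% and 20.9% of all genes. Of the 6 detected on every array 1 was higher and 4 lower, against 26.4% and 20.7% of all such genes. Without replicate 1 of batch B, 2 of the 9 were higher. The probes of Hbb-b1, the beta globin chain, were detected on at most 1 array of batch A and on none of batch B. In bulk RNA, fewer cells of a kind and less RNA per cell cannot be told apart.

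Between the batches 4212 of 9362 genes were called (45%, limma with Benjamini-Hochberg adjustment, adjusted p below 0.05). Of these, 2257 were higher in batch B (24.1%) and 1955 lower (20.9%). An unadjusted p below 0.05 was reached by 4969 genes (53.1%), and the groups of 3 arrays did not overlap for 5290 (56.5%). Changes of at least 2-fold were fewer, 851 genes in all (9.09%), with 353 higher (3.77%) and 498 lower (5.32%). The median difference over all genes was 0.04, and the central 90% of genes lay between -1.02 and 0.91. Scaling each array by its median alone gave 1610 higher and 2386 lower, 40.29% of the calls being higher against 53.58% above, with a median difference of -0.07, so that a single gene close to 0 has no secure direction. In the authors' deposited log2 table, whose probes all have a median of 0 over the 21 arrays and whose normalization is not stated, limma called 1 gene higher and 0 lower. There 3 genes had an unadjusted p below 0.05, and the central 90% of differences lay between -0.05 and 0.05. The differences described here come from the scanner intensities. They are nearly absent from that table, and the cause was not tested.

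**Figure D2:**
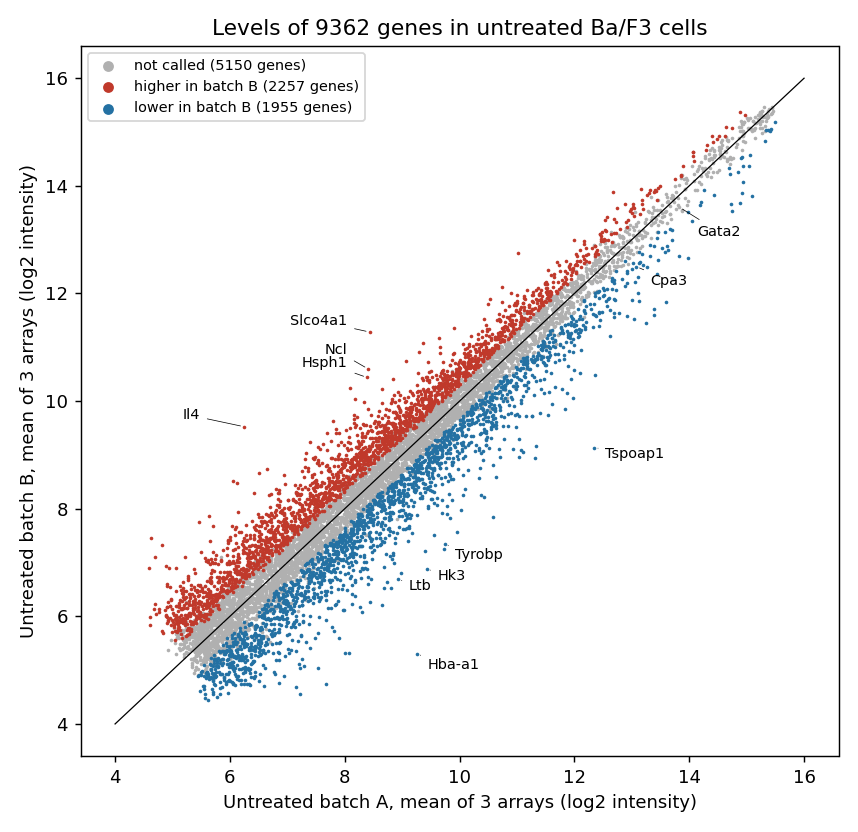
Mean log2 intensity of each of 9362 genes in untreated batch A (horizontal axis) and untreated batch B (vertical axis), 3 arrays each, with the line of equality. Red points are the 2257 genes called higher in batch B and blue points the 1955 called lower. Il4 and Slco4a1 stand above the line and Tspoap1 and Hba-a1 below it, while Gata2 lies near it.

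The components of the IL-3 receptor were present in both batches, with 1 beta chain lower in batch B. Il3ra, the alpha chain that binds IL-3, read 7.60, 7.58 and 7.64 in batch A and 7.69, 7.75 and 7.50 in batch B, with overlapping groups (difference 0.04, adjusted p = 0.803). Csf2rb, the beta chain shared with other cytokine receptors, read 10.99, 11.20 and 10.91 against 10.03, 9.51 and 9.63. No batch B array reached the batch A values of Csf2rb, which fell 2.48-fold (adjusted p = 0.000564), and its 2 other probes fell too. Csf2rb2, the second beta chain of the mouse, which pairs with Il3ra alone, differed by 0.32 (adjusted p = 0.0599) and was called higher with median scaling (adjusted p = 0.0093). The 2 beta chain genes are close copies, so that cross-hybridization between their probes is possible and was not tested. Jak2 fell by 0.94 and Jak1 by 0.92 on the log2 scale (adjusted p = 0.00113 and 0.00311), and Stat5a differed by -0.10 (adjusted p = 0.442). Of 20 tested genes of receptors and their signalling, 2 were higher (10%) and 5 lower (25%), against 24.1% and 20.9% of all genes. Without replicate 2 or 3 of either batch 3 were lower, and without any 1 of the batch A arrays or replicate 2 of batch B 1 was higher.

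Among targets of IL-3 and STAT5, Cish, Socs2 and Mcl1 were not called, and Pim1 and Myc were lower in batch B. Cish, a feedback inhibitor induced by STAT5, read 12.35, 12.06 and 12.11 in batch A and 12.02, 12.29 and 12.24 in batch B. The groups of Cish overlap (difference 0.01, adjusted p = 0.95), as do those of Socs2 (-0.04, adjusted p = 0.889) and Mcl1 (0.10, adjusted p = 0.594). Pim1, a survival kinase, read 6.74, 7.45 and 7.40 in batch A, where every array detected it, and 5.58, 4.71 and 5.04 in batch B, where 1 of 3 did. It was at least 3.08-fold higher in batch A (adjusted p = 0.000614). Myc, the growth regulator, read 7.30, 8.01 and 7.73 against 5.59, 6.79 and 6.54, 2.58-fold lower (SE 0.31 on the log2 scale, adjusted p = 0.00823). Of 16 tested targets 2 were higher (12.5%) and 4 lower (25%), against 24.1% and 20.9% of all genes, with a median of -0.01. Without replicate 1 or 3 of batch B or replicate 2 or 3 of batch A, 2 were lower, and without any 1 of the batch A arrays or replicate 2 or 3 of batch B, 1 was higher. Of the 13 targets detected on all 6 arrays 2 were higher and 3 lower, against 26.4% and 20.7% of all such genes.

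Cytokine genes were among those that differed most, in both directions. Il4, the type 2 cytokine made by basophils and mast cells, read 5.94, 6.14 and 6.65 in batch A and 9.46, 9.69 and 9.43 in batch B. It was detected on all 6 arrays and was 9.7-fold higher in batch B (difference 3.28 ± 0.19, adjusted p = 4.30e-05). Il4 rose most among called genes named in RefSeq that were detected on all 6 arrays without overlap. Il13, its neighbour in the type 2 cytokine cluster, was detected on no batch A array and on every batch B array, at 6.46, 6.71 and 6.49. Il13 passed the detection filter only through batch B and was at least 2.25-fold higher there (adjusted p = 0.000364).

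The inflammatory chemokine genes Ccl4 and Ccl3 rose as well. Ccl4 read 8.38, 7.41 and 8.50 in batch A and 10.01, 10.30 and 10.41 in batch B, a 4.42-fold difference (adjusted p = 0.000692), and Ccl3 rose 2.95-fold (adjusted p = 0.00265). Csf1, the macrophage growth factor, rose 2.56-fold (adjusted p = 0.000564). Other secreted factors fell: Ltb, the membrane anchor of lymphotoxin, read 8.82, 9.05 and 8.91 against 6.74, 6.74 and 6.57, a 4.73-fold fall (adjusted p = 3.13e-05). Ccl9 fell 4.33-fold, Ccl6 3.09-fold and Spp1, which encodes osteopontin, 2.12-fold (adjusted p = 4.30e-05, 0.00176 and 0.000386). Osm, an IL-3-induced cytokine, read between 12.78 and 13.30 on all 6 arrays and was not called (0.06, adjusted p = 0.776), although its second probe was called lower. In all, 5 of 15 tested cytokine genes were higher (33.3%) and 6 lower (40%), against 24.1% and 20.9% of all genes. Of the 13 detected on all 6 arrays 4 were higher and 5 lower, against 26.4% and 20.7% of all such genes. On the array were 29 cytokine genes, 14 of them detected on none of the arrays.

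**Figure D3:**
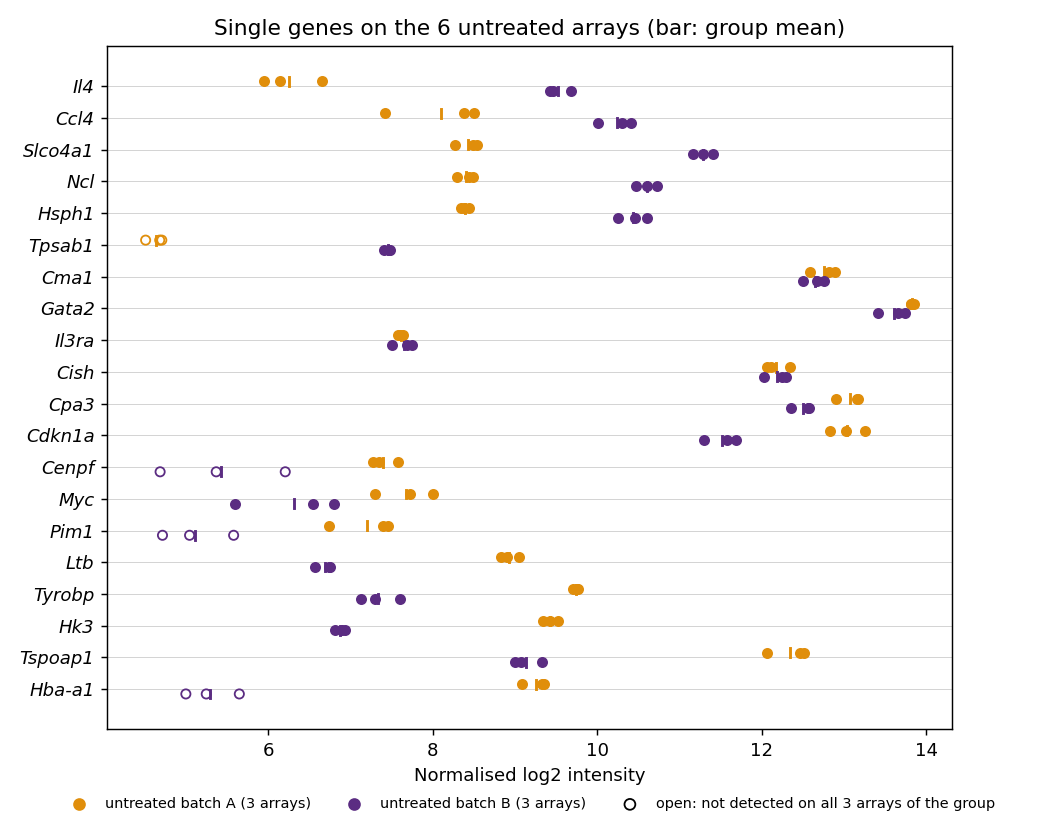
Normalised log2 intensity (horizontal axis) of 20 genes on each untreated array, batch A in orange and batch B in purple. A bar marks the group mean, and open circles mark a group in which the gene was not detected on all 3 arrays. Il4 to Tpsab1 lie apart with batch B to the right, Cma1, Il3ra and Cish overlap, and Ltb to Hba-a1 lie apart with batch B to the left.

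Genes of ribosome biogenesis were higher in batch B as a group. This nucleolar machinery transcribes and trims ribosomal RNA and assembles the subunits. Of 36 tested members, 24 (66.7%) were higher in batch B and 2 (5.56%) lower, against 24.1% and 20.9% of all genes, and the median difference was 0.64 against 0.04. Ncl, the abundant nucleolar protein nucleolin, read 8.49, 8.29 and 8.44 in batch A and 10.47, 10.60 and 10.72 in batch B. The groups are widely separated, at 4.57-fold (adjusted p = 3.84e-05), and the second probe of Ncl rose to the same degree (2.14). Rrp12, which exports precursor subunits, rose 2.76-fold, Pes1, of the complex that processes large subunit RNA, 2.28-fold, and Bop1, its partner, 1.83-fold (adjusted p = 0.000138, 0.000383 and 0.0008). Heatr1 rose 2.16-fold, the RNA methyltransferase gene Nop2 2.15-fold, and the RNA polymerase I subunit genes Polr1b and Polr1a 1.98-fold and 1.9-fold.

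The exceptions were few. Npm1, the most abundant nucleolar chaperone, lay between 14.99 and 15.10 on all 6 arrays and was not called (0.05, adjusted p = 0.699). Nop56, a core protein of box C/D particles, fell by 0.47 (adjusted p = 0.00726), which was not called with all 21 arrays together (adjusted p = 0.0837). Utp14a, detected on 2 of 3 arrays of batch B, was at least 2.04-fold higher in batch A (adjusted p = 0.0353), but it was not called without replicate 1 (adjusted p = 0.0913), 2 (0.0932) or 3 (0.077) of batch A or replicate 2 (0.0965) or 3 (0.0999) of batch B. Of the 60 tested ribosomal protein genes themselves, 5 were higher (8.33%) and 9 lower (15%), against 24.1% and 20.9% of all genes. Their median was 0.03, and 3 were higher without replicate 2 or 3 of batch A. Among ribosome biogenesis members detected on all 6 arrays, 23 of 34 were higher in batch B and 1 lower, against 26.4% and 20.7% of all such genes. Noc3l, a nucleolar complex gene outside the list, rose 4.27-fold, from 6.71, 6.44 and 6.76 to 8.69, 8.83 and 8.67 (adjusted p = 4.51e-05).

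The E-box CACGTG, which is its own reverse complement, is the letter pattern recognised by Myc and related factors, and ribosome biogenesis genes are known targets. It was present in the promoter windows of 7 of 31 tested members with a window (22.6%), against 7.24% of all 27025 windows and 10.7% of those of tested genes. Of the 31 windows, 21 belonged to members called higher in batch B, and all 7 were among these. Whether the motif goes with the rise was not tested. Over all genes it was in 13% of windows of genes higher in batch B and 8.68% of those lower. Windows of Pes1 (chr11:3963725-3964024, plus strand) and Nop2 (chr6:125131633-125131932, plus strand) are shown because they carry the motif in the group that rose; they run from 250 bases before to 50 after the gene start in RefSeq's annotation of GRCm38.p6, with the motif in capitals.
Pes1: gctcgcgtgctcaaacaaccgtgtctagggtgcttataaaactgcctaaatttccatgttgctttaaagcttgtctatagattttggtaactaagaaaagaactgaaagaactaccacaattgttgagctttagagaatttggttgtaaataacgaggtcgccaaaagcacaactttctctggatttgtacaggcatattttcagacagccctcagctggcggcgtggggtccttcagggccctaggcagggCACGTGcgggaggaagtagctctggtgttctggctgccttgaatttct
Nop2: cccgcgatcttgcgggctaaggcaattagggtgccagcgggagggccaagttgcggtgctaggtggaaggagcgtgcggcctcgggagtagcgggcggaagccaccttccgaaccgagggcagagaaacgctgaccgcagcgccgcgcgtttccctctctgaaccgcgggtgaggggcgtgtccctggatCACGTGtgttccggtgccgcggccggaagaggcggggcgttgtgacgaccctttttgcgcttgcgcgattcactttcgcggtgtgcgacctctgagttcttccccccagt
A match is a description of these letters only, and a link of Myc to these genes was not tested.

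Chaperone genes also leaned towards batch B. Heat shock proteins fold or refold other proteins, and Hsf1 is the factor that induces them. Of 23 tested members 12 (52.2%) were higher in batch B and 1 (4.35%) was lower (Cct2, a chaperonin subunit gene), against 24.1% and 20.9% of all genes, with a median of 0.42. Hsph1, a large co-chaperone of Hsp70, read 8.44, 8.34 and 8.38 in batch A and 10.26, 10.60 and 10.46 in batch B. Every batch B array was higher by a wide margin, 4.15-fold (adjusted p = 4.51e-05). Hspd1, the mitochondrial chaperonin, rose 1.79-fold, Dnajb6 1.97-fold, Hsf1 1.67-fold and Hspa8, the constitutive Hsp70, 1.46-fold (adjusted p = 0.00104, 0.000666, 0.00476 and 0.00348).

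Hspa1a and Hspa1b, the inducible Hsp70 genes, were detected on no array of either group, and Dnajb1 read 11.31, 10.92 and 11.10 in batch A against 11.32, 11.14 and 11.30 in batch B, with overlapping groups (0.14, adjusted p = 0.405). Hsp90aa1 differed by -0.15 (adjusted p = 0.372). Hspa5, the endoplasmic reticulum Hsp70, rose by 1.30 (adjusted p = 0.00392), with replicate 1 of batch B highest at 9.03 and the others at 8.11 and 8.16, and was not called with all 21 arrays together (adjusted p = 0.099). Cct2 was not called without replicate 2 (adjusted p = 0.0845) or 3 (0.126) of batch A or replicate 1 (0.0609) or 3 (0.125) of batch B, and without replicate 1 of either batch 2 members were lower. Hsph1 carries the core pair of heat shock element units, GAANNTTC, in its promoter window (chr5:149636287-149636586, minus strand), shown here with the match in capitals because it rose most in the group.
Hsph1: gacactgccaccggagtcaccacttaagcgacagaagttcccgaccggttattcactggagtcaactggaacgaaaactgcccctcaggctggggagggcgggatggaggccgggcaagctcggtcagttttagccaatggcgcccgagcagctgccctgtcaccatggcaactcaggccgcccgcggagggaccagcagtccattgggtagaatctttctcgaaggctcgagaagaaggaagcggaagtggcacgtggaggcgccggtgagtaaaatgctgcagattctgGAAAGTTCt
The pattern reads the same on both strands and was in 27.8% of the 18 windows of tested members, against 7.95% of all windows and 5.5% of those of tested genes.

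Targets of p53 were lower in batch B. The tumour suppressor p53 induces genes of arrest, repair and death, and Trp53 encodes it. Of 17 tested genes of the list, which counts Trp53 itself, 13 (76.5%) were lower and 2 (11.8%) higher (Aen and Trp53). Over all genes the shares were 20.9% and 24.1%, and the median of the list was -0.79. Cdkn1a, the cell cycle inhibitor p21, read 13.02, 12.83 and 13.26 in batch A and 11.30, 11.69 and 11.57 in batch B. All batch B values are lower, by 2.86-fold (adjusted p = 0.00029), and both other probes fell. Trp53inp1, a stress-induced partner of p53, read 8.56, 8.45 and 8.37 against 6.66, 6.73 and 6.67, a 3.42-fold fall (adjusted p = 4.51e-05). Zmat3, a p53-induced RNA-binding protein gene, fell 2.37-fold, Fas, the death receptor, 2.33-fold, Bbc3, the death inducer PUMA, 2.18-fold, and Gadd45a 1.87-fold (adjusted p = 0.000153, 0.00169, 0.00122 and 0.000614). One of 2 other Fas probes differed by 0.23 in the opposite direction and was not called.

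Mdm2, the ubiquitin ligase that p53 induces and that restrains it, read 10.78, 10.56 and 10.51 in batch A and 10.47, 10.45 and 10.63 in batch B. Its groups overlap and it was not called (-0.10, adjusted p = 0.525), while its second probe was called lower. Trp53 itself read 9.84 to 9.86 on the batch A arrays and 10.17 to 10.20 on those of batch B, a small difference of 0.33 (adjusted p = 0.0238), which was not called with median scaling (adjusted p = 0.0976), without any 1 of the 3 batch A arrays (adjusted p = 0.0622, 0.0694 and 0.0613) or without replicate 2 (0.0582) or 3 (0.0655) of batch B. Among genes of the list detected on all 6 arrays, 13 of 16 were lower and 1 (Trp53) was higher. Over all such genes the shares were 20.7% and 26.4%. The count of 2 higher was 0 or 1 without any single array. Over the other settings tried, the authors' table aside, 10 to 13 targets were lower, and the list's median lay between -0.89 and -0.46.

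**Figure D4:**
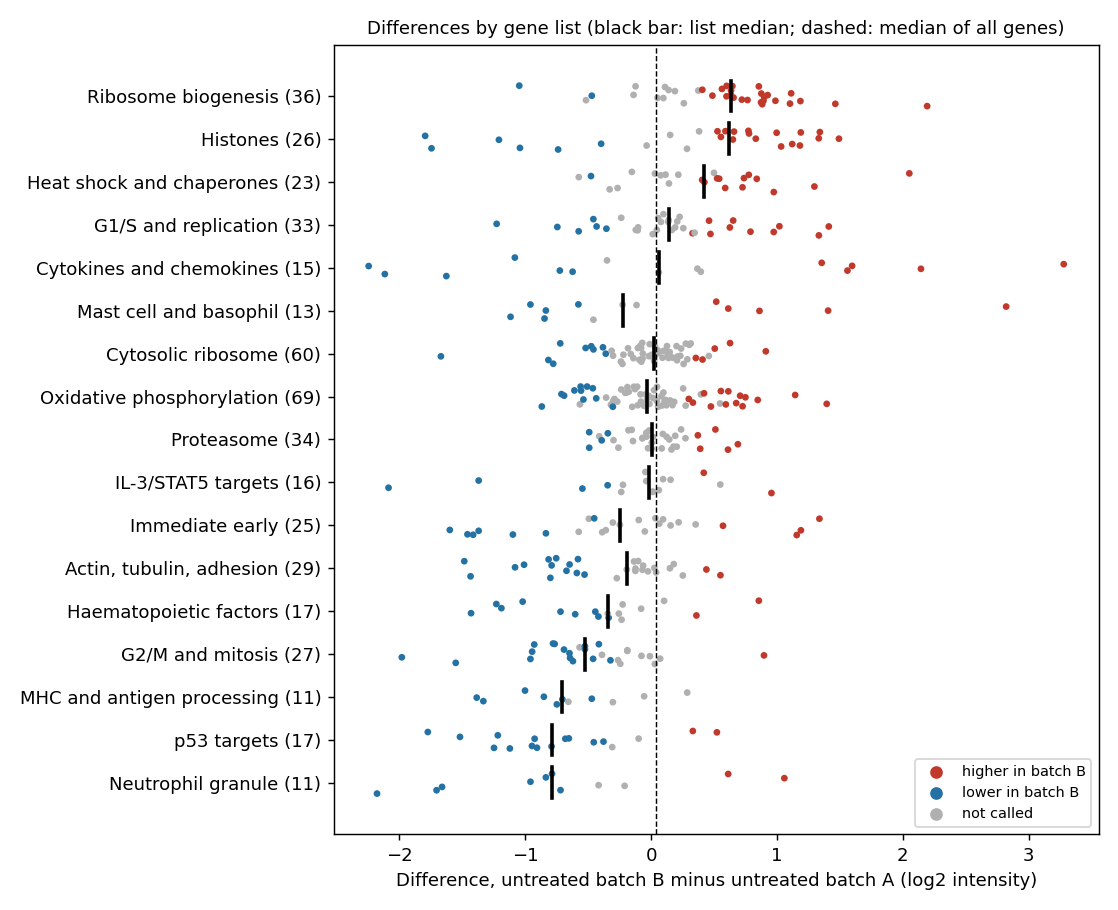
Difference in log2 intensity, batch B minus batch A (horizontal axis), for every tested gene of 17 lists, with the number of tested genes in brackets. Points are red where called higher in batch B, blue where called lower and grey otherwise. Black bars mark list medians, from 0.64 for ribosome biogenesis to -0.79 for p53 targets and neutrophil granule genes, and the dashed line marks the median of all genes, 0.04.

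Mitotic genes were mostly lower in batch B. Of 27 tested G2/M genes 16 (59.3%) were lower and 1 (3.7%) was higher (Ccnf, cyclin F), against 20.9% and 24.1% of all genes, with a median of -0.53. Of the 24 detected on all 6 arrays 15 were lower and 1 higher, against 20.7% and 26.4% of all such genes. Ube2c, which marks mitotic proteins for destruction, read 7.82, 8.10 and 8.19 in batch A and 6.72, 6.26 and 6.48 in batch B, a 2.93-fold fall with no overlap (adjusted p = 0.000282). Cdk1, the mitotic kinase, read 11.40, 11.60 and 11.52 against 10.53, 10.60 and 10.52, a 1.94-fold fall (adjusted p = 0.000421). Cenpf, a kinetochore protein gene, was detected on all batch A arrays and on 1 of 3 in batch B and was at least 3.06-fold higher in batch A (adjusted p = 0.00214). Kif23, a motor of cell division, fell 1.92-fold, and the proliferation marker Mki67 1.72-fold (adjusted p = 0.00169 and 0.00198). Plk1 (-0.19, adjusted p = 0.291) and Ccnb1 (-0.39, adjusted p = 0.0608) were not called, and Ccnb1 was called lower in several other settings, among them without replicate 3 of batch B (adjusted p = 0.0351).

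Of 33 tested genes of G1/S and replication, 10 were higher (30.3%) and 6 lower (18.2%), near the 24.1% and 20.9% of all genes, with a median of 0.14. Ung, which removes uracil from DNA, rose 2.66-fold, the activator E2f3 2.52-fold, Cdc6, which loads the replicative helicase, 2.03-fold, and Ccne1, cyclin E1, 1.96-fold (adjusted p = 0.000157, 0.00132, 0.000339 and 0.00135). Pcna, the sliding clamp of replication and also a p53 target, fell 2.34-fold, from 10.45, 11.25 and 11.22 to 9.94, 9.56 and 9.74 (adjusted p = 0.00295). The count of 6 lower was 2 without replicate 2 of batch A and 3 without replicate 2 of batch B. The CCAAT box, bound by NF-Y, is known from mitotic gene promoters and was searched on both strands. It was in 78.3% of the 23 windows of tested G2/M genes, against 37.9% of all windows and 39.6% of those of tested genes. Windows of Cdk1 (chr10:69352863-69353162, minus strand), with 3 matches, and Ube2c (chr2:164769679-164769978, plus strand), with 6, are shown for the genes given array by array above, with CCAAT or its complement ATTGG in capitals.
Cdk1: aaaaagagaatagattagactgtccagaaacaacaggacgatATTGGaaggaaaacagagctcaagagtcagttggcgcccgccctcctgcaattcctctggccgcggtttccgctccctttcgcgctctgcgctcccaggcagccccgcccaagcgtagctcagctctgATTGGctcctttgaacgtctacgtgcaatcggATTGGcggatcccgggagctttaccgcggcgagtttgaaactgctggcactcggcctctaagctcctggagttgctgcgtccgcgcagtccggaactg
Ube2c: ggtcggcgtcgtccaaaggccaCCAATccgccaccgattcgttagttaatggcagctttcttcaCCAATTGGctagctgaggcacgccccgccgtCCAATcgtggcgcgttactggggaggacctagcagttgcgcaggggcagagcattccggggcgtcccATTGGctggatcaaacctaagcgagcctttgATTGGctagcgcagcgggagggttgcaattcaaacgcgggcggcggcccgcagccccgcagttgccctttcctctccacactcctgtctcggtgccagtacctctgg
The share was 40.7% in windows of all genes lower in batch B and 38.4% in those of all genes higher.

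Neutrophil granule genes were mostly lower in batch B. Of 16 on the array 11 were tested, and 7 of these (63.6%) were lower and 2 (18.2%) higher, against 20.9% and 24.1% of all genes, with a median of -0.79. Without replicate 1 or 3 of batch A or replicate 2 or 3 of batch B, 1 was higher. Of the 8 detected on all 6 arrays 6 were lower and 1 higher, against 20.7% and 26.4% of all such genes. Prtn3, a serine protease of primary granules, read 9.86, 10.06 and 9.69 in batch A and 8.16, 8.10 and 8.24 in batch B, a 3.26-fold fall without overlap (adjusted p = 0.000104). Ngp, the neutrophilic granule protein gene, fell 3.16-fold (adjusted p = 0.000264). Lcn2, the iron-binding lipocalin of secondary granules, was detected on all 3 arrays of batch A and on none of batch B. It passed the detection filter only through batch A and was at least 3.14-fold higher there (adjusted p = 0.00014). Cebpe, the factor of granule maturation, fell 1.65-fold with all 4 of its probes called lower (adjusted p = 0.00318). S100a8 and S100a9, the paired calcium-binding proteins, fell 1.94-fold and 1.73-fold (adjusted p = 0.00124 and 0.00174), and S100a8 was not called with all 21 arrays together (adjusted p = 0.0542). Mpo, the myeloperoxidase gene, was called higher by 0.61 (adjusted p = 0.029) but lower by another of its probes, and the call was lost without replicate 1 (adjusted p = 0.0699) or 3 (0.0989) of batch A or replicate 2 (0.0889) or 3 (0.0944) of batch B. Elane was detected on no array.

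Mast cell and basophil genes moved in both directions, with more lower than higher among those detected on all 6 arrays. Of 23 on the array 13 were tested, 5 being higher and 5 lower (38.5% each, against 24.1% and 20.9% of all genes). Tpsab1 and Ms4a2 passed the filter only through batch B, so their calls rest in part on undetected values in batch A. Of the 11 detected on all 6 arrays 3 were higher and 6 lower, against 26.4% and 20.7% of all such genes. The median of the 11 was -0.46. Tpsab1, a tryptase gene, was detected on no batch A array and read 7.48, 7.47 and 7.41 in batch B, at least 4.2-fold higher (adjusted p = 1.65e-05). Hdc, which makes histamine, read 10.69, 10.60 and 10.66 in batch A and 11.46, 11.59 and 11.49 in batch B, 1.82-fold higher (adjusted p = 0.000535; 0.0616 with all 21 arrays together). Ms4a2, the beta chain of the IgE receptor, was detected on 1 of 3 arrays of batch A and all of batch B and was at least 2.17-fold higher (adjusted p = 0.00512). Srgn, the proteoglycan that packs granule contents, read 12.91, 13.19 and 12.91 in batch A and was 2.17-fold lower in batch B (adjusted p = 0.00045), and Slc18a2, the vesicular amine transporter, fell 1.94-fold (adjusted p = 0.000819). Of the eosinophil genes, Epx, the eosinophil peroxidase, fell 2.43-fold and Ear2, a granule ribonuclease, rose 2.82-fold (adjusted p = 0.00271 and 0.00189), and close copies of Ear2 exist.

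Tspoap1, Hk3, Tyrobp, Pglyrp1 and Stab1 belong to none of the lists. They were among the 12 largest falls of called genes named in RefSeq and detected on all 6 arrays without overlap. Tspoap1, which encodes a partner of the benzodiazepine receptor, read 12.47, 12.52 and 12.06 in batch A and 9.0, 9.33 and 9.07 in batch B. This was the largest of these falls (9.27-fold, adjusted p = 2.70e-05). Hk3, a myeloid hexokinase gene, read 9.42, 9.52 and 9.34 against 6.89, 6.93 and 6.81 (5.85-fold lower, adjusted p = 1.65e-05). Tyrobp, the signalling adaptor DAP12, read 9.71, 9.76 and 9.75 against 7.29, 7.12 and 7.60 (5.28-fold lower, adjusted p = 4.30e-05). None of these 3 genes overlapped between the groups. Pglyrp1, a peptidoglycan sensor, fell 5.23-fold, the scavenger receptor gene Stab1 4.59-fold and Fcgr2b, the inhibitory IgG receptor, 3.96-fold, the last with all 3 other probes called the same way (adjusted p = 1.65e-05, 8.44e-05 and 3.85e-05). Adgre1, a surface antigen of macrophages, was detected on all 6 arrays and fell 1.7-fold (adjusted p = 0.00276).

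Antigen presentation genes were lower or not called, with 7 of 11 tested (63.6%) lower, against 20.9% of all genes, the other 4 not called and a median of -0.70. Of the 9 detected on all 6 arrays 7 were lower, against 20.7% of all such genes. H2-DMb1, which loads peptides on class II molecules, read 10.42, 10.61 and 10.50 in batch A and 8.91, 9.30 and 9.16 in batch B, 2.61-fold lower (adjusted p = 0.000246). H2-T23, a class Ib gene, fell 2.52-fold (adjusted p = 0.00026). B2m, the class I light chain, differed by -0.30 (adjusted p = 0.0538) and was called lower in several other settings, among them without replicate 1 of batch B (adjusted p = 0.0466). H2-D1, a classical class I gene, read 12.53 to 12.65 on the batch A arrays and 12.76 to 13.04 on those of batch B (0.29, adjusted p = 0.0776; called higher with median scaling at 0.0102), while its second probe was called lower, so the 2 probes disagree.

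Of 17 tested haematopoietic transcription factors 9 (52.9%) were lower and 2 (11.8%) higher, against 20.9% and 24.1% of all genes, with a median of -0.34. Without replicate 2 or 3 of either batch 1 was higher. Nfe2, the haematopoietic factor of megakaryocytes and red cells, read between 11.79 and 12.21 in batch A and 10.28, 10.78 and 10.65 in batch B, 2.69-fold lower (adjusted p = 0.000489). Spi1, the myeloid factor PU.1, read 7.35, 7.87 and 7.83 against 6.24, 6.74 and 6.37, 2.34-fold lower (adjusted p = 0.00137). Klf1, the erythroid factor that activates globin genes, fell 1.7-fold (adjusted p = 0.00498). Gata1, the erythroid and mast cell factor, fell by 1.02 (adjusted p = 0.00227), but its second probe differed by -0.05 and was not called. Tal1 differed by 0.10 with overlapping groups (adjusted p = 0.483), and Etv6 rose 1.81-fold (adjusted p = 0.00408). Tfrc, the transferrin receptor, rose 1.6-fold (adjusted p = 0.00177).

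Immediate early genes, which serum or growth factors switch on within minutes, were called lower in 7 (28%) and higher in 4 (16%) of 25 tested, against 20.9% and 24.1% of all genes. Fos read 12.95, 12.22 and 12.69 in batch A and 11.23, 11.16 and 11.23 in batch B, 2.66-fold lower (adjusted p = 0.000666). Junb read 10.99, 10.81 and 11.15 against 9.66, 9.48 and 9.44, 2.75-fold lower (adjusted p = 0.000188). Neither gene's groups overlap. Dusp4, a phosphatase that limits the ERK pathway, went the other way, with 11.02, 11.08 and 10.89 in batch B (2.53-fold higher, adjusted p = 0.00052), and Egr3 rose 2.28-fold (adjusted p = 0.00207). Dusp1, a phosphatase of the same family, overlapped between the groups (-0.10, adjusted p = 0.743). Egr1 read 5.77 to 5.85 and 5.87 to 5.89 and was not called (adjusted p = 0.609).

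Genes of the actin cytoskeleton and adhesion were lower in 13 of 29 tested (44.8%) and higher in 2 (6.9%), against 20.9% and 24.1% of all genes. Without any 1 of the batch A arrays or replicate 2 or 3 of batch B, 1 was higher. Cfl1, the actin-severing protein cofilin, read 10.84, 10.62 and 10.87 in batch A and 9.16, 9.32 and 9.40 in batch B, 2.8-fold lower (adjusted p = 0.00014). Itgb7, an integrin subunit gene, fell 2.7-fold and Lgals3, galectin 3, 2.01-fold (adjusted p = 0.00026 and 0.000422). The counts of 3 further lists moved with single arrays. Of 69 tested genes of oxidative phosphorylation 14 were higher (20.3%) and 11 lower (15.9%), against 24.1% and 20.9% of all genes, and 6 or 7 were lower without replicate 2 or 3 of either batch. Of 34 proteasome genes 5 were higher (14.7%) and 4 lower (11.8%), with 3 and 1 without replicate 1 of batch A, 3 higher without replicate 2 of either batch, and 2 lower without replicate 2 of batch A or 3 of batch B. Of 28 genes of glycolysis and hypoxia 2 were higher (7.14%) and 6 lower (21.4%), with 3 lower without replicate 3 of batch A or 2 of batch B and 1 higher without replicate 1 or 3 of batch A or 2 or 3 of batch B. Gapdh read 14.32 to 14.56 on the batch A arrays and 14.22 to 14.32 on those of batch B, which overlap (-0.22, adjusted p = 0.153).

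Further genes were detected in 1 batch only and passed the detection filter through that batch alone. Their adjusted p-values rest on undetected values in the other batch and are given as description. Fam178b read 7.65, 7.58 and 7.77 in batch A and was detected on no batch B array, at least 4.28-fold higher in batch A (adjusted p = 2.01e-05), and its second probe was lower as well. Csrp3, a LIM protein gene known from muscle, and Slc26a3, an anion exchanger gene, were likewise detected on every batch A array and on none of batch B, at least 3.14-fold and 2.99-fold higher in batch A (adjusted p = 1.65e-05 and 0.000402). In the other direction Emp1, a membrane protein gene, read 7.05, 7.25 and 7.03 in batch B and was detected on no batch A array, at least 3.31-fold higher (adjusted p = 2.73e-05). Gldc, of the glycine cleavage system, was at least 2.86-fold higher in batch B (adjusted p = 0.000217). Tcf7, a factor of T cells and progenitors, also appeared in batch B alone, at 7.70 on replicate 1 and 6.49 and 6.51 on the others, at least 2.86-fold higher (adjusted p = 0.000826). Slco4a1, an organic anion transporter gene, was detected on all 6 arrays and rose from 8.49, 8.27 and 8.54 to 11.28, 11.17 and 11.40 (7.21-fold, adjusted p = 1.65e-05).

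The treated arrays of the same batches were compared after these results were seen, to give the same differences in other samples. The mildest heat in batch B (42 °C) was set against actuation at 1 kHz in batch A, with all 21 arrays processed together. This comparison shares no array with the untreated one, although some of its arrays lay on the same beadchips. Its groups differ in treatment as well, so treatment and batch cannot be told apart. Of the 2257 genes higher in untreated batch B, 95.04% had the same sign there, as had 96.01% of the 1955 lower, against 81.97% of all genes tested. Over the whole series, all 12 batch B arrays lay apart from all 9 batch A arrays for 1032 of the 9362 genes (11%).

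Single genes differed in how far they carried over. Hba-a1 differed by -3.64 in the treated arrays, Ncl by 2.13, Hk3 by -2.56, Tyrobp by -2.50 and Cdkn1a by -1.58, against -3.96, 2.19, -2.55, -2.40 and -1.52 in untreated cells. The untreated values come from the 6 arrays processed alone, the treated ones from all 21 together. Ncl, Tyrobp and Cdkn1a were separate on all 21 arrays. Il4 differed by 2.01, against 3.28 in untreated cells. Ccl4 differed by 0.63, against 2.14 in untreated cells. Ccl3 (-0.22), Emp1 (0.21) and Ear2 (0.19) were close to even in the treated arrays. Hsph1 differed by 5.51, against 2.05 in untreated cells, and heat and batch cannot be told apart there.

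**Figure D5:**
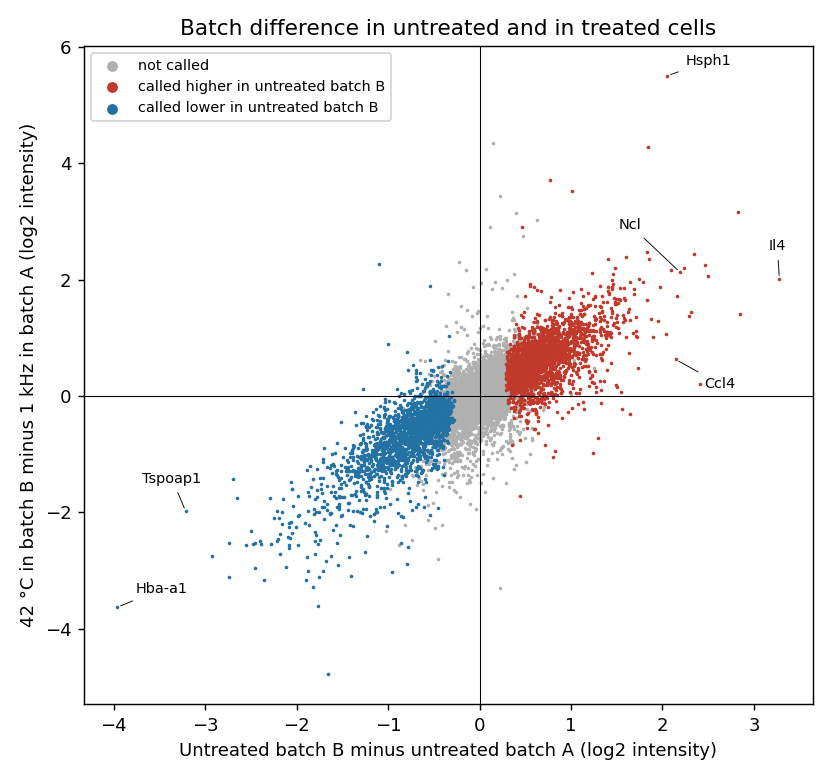
Difference between batches in untreated cells (horizontal axis, log2 intensity) against that between cells heated at 42 °C in batch B and cells actuated at 1 kHz in batch A (vertical axis), 1 point per gene, coloured by the call in untreated cells. Most called genes lie in the quadrants of like sign (95.04% of the higher and 96.01% of the lower), and Hsph1 stands above the rest at 5.51.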

How the data were processed

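Per the file headers, the authors deposited a GenomeStudio table for each batch (version 1.7.0 for batch A, 1.9.0 for batch B) holding each probe's mean bead intensity, without normalization or background subtraction. The same deposited tables give a detection p-value, set against negative control beads, for every intensity. Of 12 arrays in the table for batch A, 3 could be tied to no sample and were left out. The authors also deposited a table of log2 values, whose normalization is not given in the sources used here. Its probes were tied to the scanner tables by the batch B values of a deposited table of intensities by identifier. There the values of both batches matched the same probe in 1 of 45281 rows. Batch A values that matched no probe and those that matched another were not told apart. With this tie, log2 differences between replicates 1 and 2 correlated with those of the scanner values at 0.877 in batch A and 0.899 in batch B.

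With limma 3.58.1 in R 4.3.3, intensities of the 6 untreated arrays were background-corrected by the normal-exponential model fitted from the detection p-values, given an offset of 16, quantile normalized and put on the log2 scale. Quantile normalization hides any change common to all transcripts. Probes with a detection p below 0.01 on at least 3 of the 6 arrays were kept (13613), and the probe with the highest mean stood for each of 9362 genes. Names came from the deposited accession (29370 probes), Entrez identifier (2975), symbol (2214) or synonym (2371) through RefSeq's GRCm38.p6 table; for 8351 probes, 1084 tested genes among them, the name in the file was kept. The comparison used limma's lmFit and eBayes (two-sided), p-values adjusted over all genes by Benjamini and Hochberg, a threshold of 0.05 and 4.21 prior degrees of freedom. Standard errors are limma's.

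Where no array of a group detected a gene, its fold is a lower bound that sets the group at each array's lowest detected level, or the gene's own where higher. For genes detected on 1 or 2 arrays only the undetected ones are so set, a step added after the results were seen. Genes were named by rule: the 12 largest rises and falls among called genes detected on all 6 arrays without overlap; up to 8 each way with the largest bound; per list, 6 with the smallest p and 3 nearest 0; and lineage genes. Genes whose name in the file was kept were left out of the largest rises, falls and bounds. The text gives a selection. Of 131 genes with values in the text, 23 fall outside the rule and were chosen after their values were seen: Fcgr2b and 22 list members, namely Bop1, Ccl6, Ccnb1, Cct2, Cenpf, Csf2rb2, Dnajb1, Dusp1, Fas, Gapdh, H2ac11, H2ac15, Hsf1, Hsp90aa1, Hspa8, Nop2, Nop56, Plk1, Polr1a, Polr1b, Stat5a and Utp14a. The members and lists were chosen with earlier results of these data known.

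Both groups carry replicate numbers 1 to 3, but deviations of same-numbered arrays correlated by 0.0329, 0.0338 and -0.0502, so the numbers do not pair the arrays. The alternatives were other background, offset, scaling, filter, probe, weight, prior and block settings, all 21 arrays together, the authors' log2 table and leaving out each array. The test was checked on simulated data.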

Additional observations from a re-analysis of the deposited data

How the results depend on the processing

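The counts of genes higher and lower in batch B were 2378 and 2032 without background correction, 2382 and 2046 with an offset of 50, 1610 and 2386 with median scaling, 1783 and 1504 with all 21 arrays together, 1980 and 1797 without the detection filter, 2161 and 1689 for genes detected on all 6 arrays, 2713 and 2345 with array weights, 2417 and 2044 with a trended and robust prior, and 2947 and 2806 over every kept probe. With beadchip as a random block (consensus correlation 0.287) they were 1498 and 1369, and at a minimum of 2-fold 353 and 498. In the authors' log2 table they were 1 and 0; the cause was not tested, and the correlation of its batch differences with those reported was 0.788 across genes. Leaving out 1 array gave 1640 to 2477 higher and 1439 to 2196 lower, the highest of both without replicate 1 of batch B. Genes detected on all 6 arrays numbered 8176, or 8766 at a detection p below 0.05, 7492 at 0.001 and 8189 to 8274 without 1 array. The fit with the replicate number as a block gave 2052 and 1868; the pairing check found no pairing. Over the alternatives other than the authors' table, 20 to 24 ribosome biogenesis genes and 10 to 12 heat shock genes were higher, and 10 to 13 p53 targets, 11 to 18 G2/M genes, 5 to 8 antigen presentation genes and 6 to 8 neutrophil granule genes were lower. With 3 arrays a group, of 1 beadchip in batch A and 2 in batch B, small differences and dim probes are least secure.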

Other observations

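Histone genes differed in both directions, with 16 of 26 tested higher in batch B (61.5%) and 6 lower (23.1%), against 24.1% and 20.9% of all genes (median 0.62). All 26 were detected on every batch B array, but only 22 on every batch A array. Of the 22 detected on all 6 arrays 14 were higher and 6 lower, against 26.4% and 20.7% of all such genes. H3c1 rose 2.81-fold and H4c1 2.53-fold (limma, adjusted p = 0.000165 and 0.000391), whereas H2ac15 fell 3.47-fold and H2ac11 3.35-fold (adjusted p = 0.00245 and 0.00148). Replicate 1 of batch B was the highest of its group for H2ac15, at 12.38 against 11.07 and 11.35. Histone genes have near-identical copies, so a probe may read several of them. The nuclear RNA Neat1 read 9.15, 9.47 and 9.47 in batch A and 11.68, 10.65 and 10.90 in batch B, 3.27-fold higher (adjusted p = 0.00121). Splicing factor genes were higher in 12 of 29 tested (41.4%) and lower in 2 (6.9%), against 24.1% and 20.9% of all genes, while their median of 0.04 was that of all genes. The count lower was 1 without replicate 1 or 3 of batch A, 0 without replicate 2 of batch A and 4 without replicate 1 of batch B. Among the higher were Luc7l (2.72-fold) and Srsf3 (2.14-fold, adjusted p = 0.00014 and 0.000666).

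Genes of cell death moved on both sides. Bcl2l11, the death inducer BIM, rose 2.14-fold (adjusted p = 0.000304), while the survival genes Bcl2a1d and Bcl2a1b, which are close copies, fell 3.4-fold and 2.64-fold (adjusted p = 5.69e-05 and 0.00014). Slc30a1, the zinc exporter, read 7.70, 7.41 and 7.94 in batch A and 9.48, 9.17 and 9.58 in batch B, 3.31-fold higher (adjusted p = 0.00026). Alox5, which starts leukotriene synthesis, fell 2.43-fold and its partner Alox5ap 1.73-fold (adjusted p = 0.000158 and 0.000691). Of 1377 called genes with over 1 kept probe, 749 had another probe called the same way and 90 had one called the opposite way.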
